A study of Mus musculus with 24 samples.

Results

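The 43 genes described here encode the machinery that copies DNA in S phase, the part of the cell cycle in which the genome is replicated. They were taken as a list of names from a table of transcript abundance in 24 mouse libraries of peritoneal metastasis, that is, of tumour deposits in the lining of the abdomen. All 43 were among the 56422 gene names of that table. Abundance is in TPM, a share of transcripts scaled for their length and to a fixed total per library, so that levels can be set side by side between genes. With a floor of 1 TPM in at least 6 libraries, 42 of the 43 genes were among the 15163 genes tested. Orc1, the largest subunit of the origin recognition complex (ORC), was left out, since it reached 1 TPM in 5 libraries.

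The libraries fall into 4 groups of 6, labelled by treatment as propionate, butyrate, combination (both acids) and control (none). Both acids are short-chain fatty acids, products of fibre fermentation by gut bacteria, and butyrate is also known as an inhibitor of histone deacetylases. The title of the series links the work to mannose, anti-PD-1 therapy and ovarian cancer. Doses, times, the tumour line, the strain and age of the animals, and any antibody treatment are not in the labels. The tissue label is peritoneum in all groups. Nothing says that replicates came from separate animals, so the p-values cover the spread between the samples alone, and that spread may be technical. TPM keeps no depth, so the number of reads behind a value is unknown.

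A replication origin is licensed in G1 when ORC, Cdc6 and Cdt1 load the ring of Mcm2 to Mcm7, and geminin (Gmnn) blocks Cdt1 when S phase has begun. Mcm10, Cdc45 and the GINS proteins turn the ring into an active helicase. Primase and DNA polymerase alpha start each strand, and polymerases epsilon and delta extend it on the sliding clamp PCNA. Many of these genes are transcribed from late G1 onwards under E2F factors, so their RNA is known as a mark of dividing cells, which in a metastasis can be tumour, stromal or immune cells.

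The sampled tissue was mixed. Skeletal muscle markers summed to 17.8 TPM in combination replicate 5 and to at least 20502 TPM in every other library. Wt1, a transcription factor gene of mesothelium that serous ovarian carcinoma also expresses, was at 131 to 368 TPM in 10 libraries and at 0 to 71.4 TPM in the other 14, with control replicate 3 at 0.65 TPM. Krt8, a keratin of simple epithelia and mesothelium, spanned 0.30 to 292 TPM. Ovary and granulosa markers (6 genes) moved with Wt1, which granulosa cells also express: they summed to 78.9 to 230 TPM in the 10 libraries and to at most 42.5 TPM in the other 14. Inha and Star made up most of these sums, while Fshr was at 0 in every library and Foxl2 at no more than 0.05 TPM. Muscle markers summed to a median of 39726 TPM in the libraries of high Wt1, against 76971 TPM in the 13 others with combination replicate 5 aside. Combination replicate 5 stood apart: it held 576 TPM of summed T cell markers and 699 TPM of summed B cell markers, against at most 47.85 and 10.55 TPM in the other combination libraries, and no Wt1. Adipocyte markers summed to 16281 TPM in it, against at most 6184 TPM in any other library. Several results that rest on this library are given with and without it. The share of TPM from the mitochondrial genome was 12.8 to 26.8% over the libraries.

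Windows around transcription starts were read to see whether E2F-type letters recur among these genes. RefSeq promoter windows of build GRCm38.p6, from 250 bases before a start to 50 after it, were at hand for 34 of the 43 genes, as 39 windows. The letters searched were TTTCCCGC, TTTCGCGC, TTTGCCGC and TTTGGCGC, on both strands, with overlapping matches counted separately. At least 1 match lay in 15 of the 39 windows (38.5%), against 744 of 32851 windows of the same length over all genes (2.26%). Below, Mcm6 (chr1:128359656-128359955, minus strand) is shown as the gene with the most matches, Mcm5 (chr8:75109259-75109558, plus strand) for its overlapping pair, Cdc6 (chr11:98907901-98908200, plus strand) for a match on the opposite strand, and Pola2 (chr19:5964157-5964456, minus strand) as a gene with none that had the smallest p of the list with propionate and with butyrate. Each is written 5′ to 3′ along the gene, with matched letters in capitals and overlapping matches run together.
Mcm6: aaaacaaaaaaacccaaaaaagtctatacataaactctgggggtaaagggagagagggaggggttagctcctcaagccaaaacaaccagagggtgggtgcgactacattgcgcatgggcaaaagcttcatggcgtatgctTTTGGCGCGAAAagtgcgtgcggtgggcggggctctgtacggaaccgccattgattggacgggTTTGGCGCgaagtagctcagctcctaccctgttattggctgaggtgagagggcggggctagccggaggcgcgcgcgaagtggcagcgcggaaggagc
Mcm5: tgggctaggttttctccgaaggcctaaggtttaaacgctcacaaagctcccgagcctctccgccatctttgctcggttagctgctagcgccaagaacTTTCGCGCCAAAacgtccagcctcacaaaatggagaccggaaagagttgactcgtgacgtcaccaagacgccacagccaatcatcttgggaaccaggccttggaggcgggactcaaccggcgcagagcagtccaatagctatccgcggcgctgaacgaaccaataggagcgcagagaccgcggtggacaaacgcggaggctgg
Cdc6: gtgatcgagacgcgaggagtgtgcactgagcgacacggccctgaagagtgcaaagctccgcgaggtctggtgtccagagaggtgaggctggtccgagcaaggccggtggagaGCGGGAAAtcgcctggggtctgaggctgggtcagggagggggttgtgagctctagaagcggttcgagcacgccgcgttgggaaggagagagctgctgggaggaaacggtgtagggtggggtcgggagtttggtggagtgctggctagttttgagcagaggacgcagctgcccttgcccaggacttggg
Pola2: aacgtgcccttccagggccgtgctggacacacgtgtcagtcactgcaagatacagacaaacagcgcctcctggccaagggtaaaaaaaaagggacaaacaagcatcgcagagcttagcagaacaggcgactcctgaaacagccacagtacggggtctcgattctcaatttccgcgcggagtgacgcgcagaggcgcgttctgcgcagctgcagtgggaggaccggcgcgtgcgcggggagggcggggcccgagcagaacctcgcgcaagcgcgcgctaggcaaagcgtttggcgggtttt
Counted from the start, the 3 matches in Mcm6 began at positions from -110 to -47. In Mcm5 the pair began at -153 and -149. In Cdc6 the match began at -138. Other windows with more than 1 match were those of Mcm3, Mcm7 and Rfc3, with 2 each. Genes with and without a match did not separate by how far they varied. The difference between the highest and the lowest log2(TPM + 1) of a gene had a median of 2.91 over the 15 genes with a match and 3.28 over the 19 without. A match is a description of letters and says nothing of what binds there.

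The level of the whole list is first given as the summed TPM of the 43 genes in each library, in order of replicate. With propionate the sums were 149, 160, 1111, 932, 163 and 244 TPM. With butyrate they were 146, 572, 353, 217, 161 and 273 TPM. With the combination they were 212, 295, 756, 781, 576 and 229 TPM, and in control 599, 1415, 180, 654, 1079 and 876 TPM. Each group thus held libraries of high and of low sums, and every treated group overlapped control. Means were 460 ± 440 TPM with propionate, 287 ± 159 with butyrate, 475 ± 263 with the combination and 801 ± 426 in control (SD, n = 6 each). In bulk tissue, fewer dividing cells and less of this RNA per cell cannot be told apart.

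Within a group, the members split the libraries into high and low almost alike, and much of the transcriptome was split the same way. The order inside each part differed between members. The highest combination library was replicate 4 for 22 members, replicate 5 for 13 and replicate 3 for 8. Propionate replicates 3 and 4 lay above the other 4 propionate libraries for all 43 genes and for 65.5% of the 15163 genes tested. Butyrate replicate 2 was the highest of its group for all 43 and for 57.1% of all genes, and replicates 2 and 3 lay above the rest for 37 and for 47.6%, the exceptions being Tyms, Gins1, Gins4, Rfc4, Gmnn and Ccne2. Combination replicates 3, 4 and 5 lay above the other 3 for 40 members and 47.2% of all genes, the exceptions being Rrm1, Ccne2 and E2f1. Control replicate 3 was the lowest control library for all 43 and for 60.3% of all genes.

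**Figure D1:**
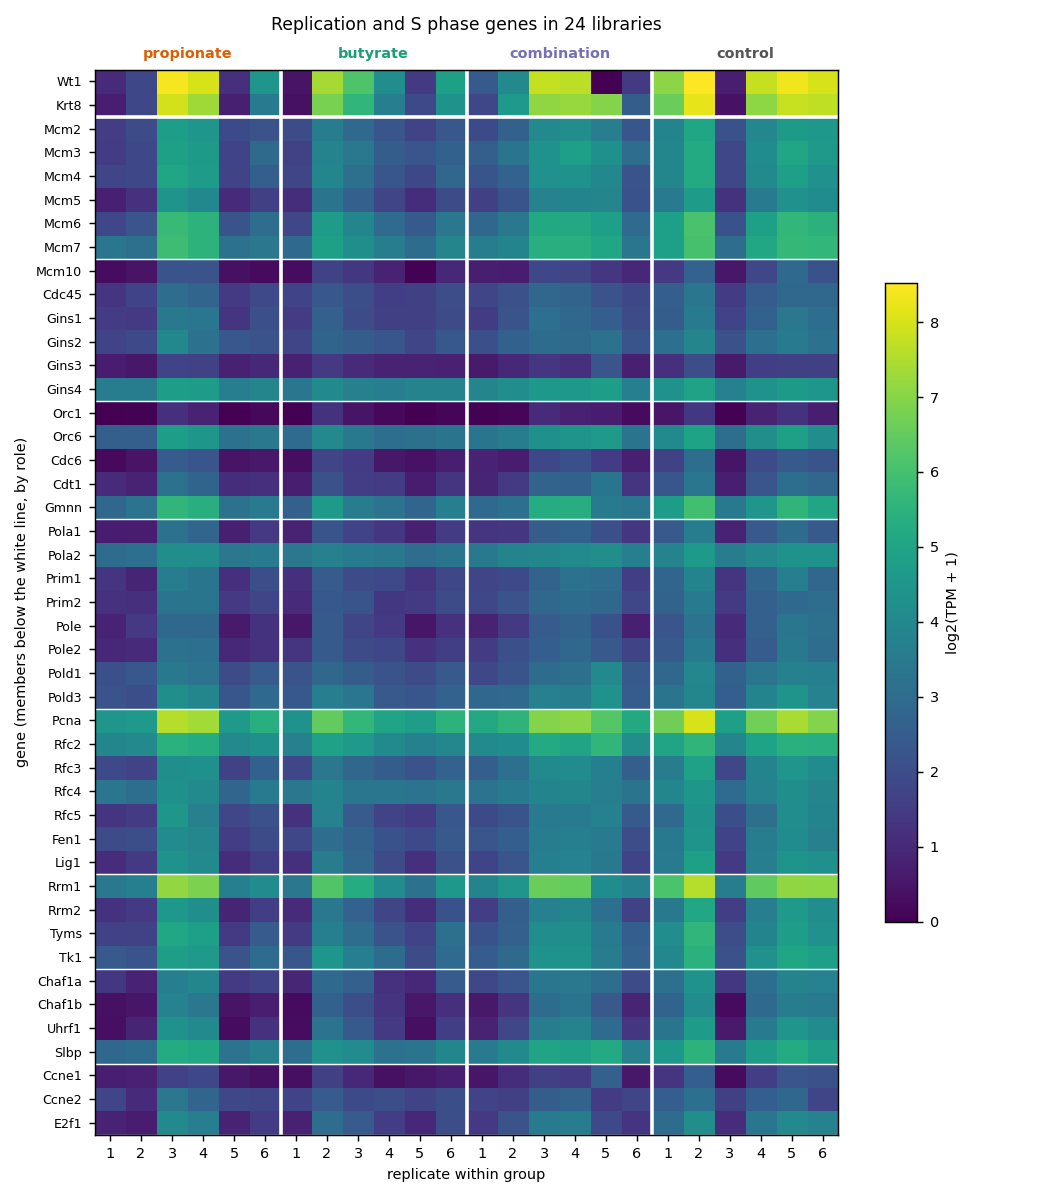
Levels of the 43 genes, with Wt1 and Krt8 in the top rows, in 24 libraries. Columns are replicates 1 to 6 of each group, rows are genes ordered by role, and colour is log2(TPM + 1). Propionate replicates 3 and 4, butyrate replicate 2, combination replicates 3 to 5 and every control replicate but 3 form bright columns across most rows.

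The helicase genes were among those that varied most. Mcm2, a subunit of the replicative helicase, was at 1.93, 2.88, 26.2, 21.4, 2.74 and 3.52 TPM with propionate. With butyrate it was at 2.88, 11.3, 6.56, 3.86, 2.33 and 3.96 TPM, and with the combination at 2.79, 5.29, 15.7, 17.7, 11.4 and 3.81 TPM. In control it was at 13.4, 31.7, 3.42, 14.4, 24.1 and 22.3 TPM. All groups overlapped, since control replicate 3 sat among the low treated libraries and propionate replicate 3 above 5 of the 6 controls. Mcm6, another subunit of the ring, had a difference of 4.27 between its highest and lowest log2(TPM + 1), from 2.5 to 66.3 TPM over all libraries. Mcm3 ran from 1.80 to 36.4 TPM.

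Genes of nucleotide supply spanned as wide a range. Rrm1, the large subunit of ribonucleotide reductase, which makes deoxynucleotides, was at 9.58, 11.8, 139, 114, 11.8 and 16.5 TPM with propionate. It was at 9.31, 73.2, 38.3, 16.4, 8.11 and 22.2 TPM with butyrate, and at 13.3, 20.7, 96.6, 90.7, 16.7 and 12.4 TPM with the combination. In control it was at 68.7, 190, 11.0, 85.5, 137 and 135 TPM. Combination replicate 5 was low for Rrm1, unlike for Mcm2. Rrm2, the small subunit, had lowest, median and highest values of 0.84, 1.87 and 22.2 TPM with propionate, 1.06, 2.93 and 9.62 TPM with butyrate, 1.92, 6.34 and 14.2 TPM with the combination, and 2.01, 14.4 and 32.4 TPM in control. The widest range of all belonged to Uhrf1, which guides maintenance of DNA methylation behind the fork, at 4.42 on the log2(TPM + 1) scale, from 0.23 to 25.3 TPM.

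The polymerase genes moved over a narrower range. Pola2, the second subunit of polymerase alpha, was at 7.17, 7.62, 17.7, 17.2, 9.41 and 10.2 TPM with propionate and at 9.47, 12.3, 10.4, 9.67, 7.36 and 8.75 TPM with butyrate. It was at 9.99, 13.4, 14.1, 16.1, 17.3 and 11.9 TPM with the combination and at 12.97, 23.1, 11.3, 15.3, 19.5 and 19.2 TPM in control. Among the butyrate libraries only replicate 2 exceeded any control library, namely replicate 3. Pold1, the catalytic subunit of polymerase delta, was at 3.21, 4.03, 9.97, 8.4, 2.96 and 4.43 TPM with propionate and at 3.49, 6.42, 4.72, 3.54, 2.86 and 4.27 TPM with butyrate. With the combination it was at 2.5, 3.66, 6.99, 7.96, 15.3 and 4.29 TPM, and in control at 6.36, 14.4, 5.23, 9.09, 12.3 and 11.9 TPM. Its highest value of all was in combination replicate 5. Pole, the catalytic subunit of polymerase epsilon, had medians of 1.51 TPM with propionate, 1.52 with butyrate, 2.62 with the combination and 6.46 in control, and ranges of 0.53 to 6.31, 0.44 to 4.29, 0.67 to 5.60 and 1.01 to 9.07 TPM in the same order.

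Gins4 and Pola2 were the most even of the tested members. Gins4, a GINS subunit, was at 10.9, 11.4, 26.3, 24.7, 11.4 and 13.8 TPM with propionate and at 9.2, 15.5, 12.2, 11.6, 13.1 and 13.02 TPM with butyrate. It was at 13.7, 17.1, 22.5, 22.4, 26.5 and 11.8 TPM with the combination and at 19.6, 28.9, 12.3, 19.1, 23.8 and 21.4 TPM in control. Its range of 1.55 on the log2(TPM + 1) scale was the narrowest of the 42 tested members, next to Pola2 with 1.56. Ccne2, which encodes cyclin E2, the activator of Cdk2 at S phase entry, was at 2.45, 1.04, 9.48, 5.87, 2.63 and 2.40 TPM with propionate and at 2.26, 4.44, 2.77, 3.17, 2.37 and 3.13 TPM with butyrate. It was at 2.25, 2.07, 4.76, 5.61, 1.84 and 2.44 TPM with the combination and at 4.80, 7.71, 2.03, 4.88, 6.32 and 2.47 TPM in control, so that control replicate 6 was also low for this gene. The clamp gene Pcna was the most abundant of the list, at a mean of 81.2 TPM over all libraries, and Orc1 the least, at 0.49 TPM.

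**Figure D2:**
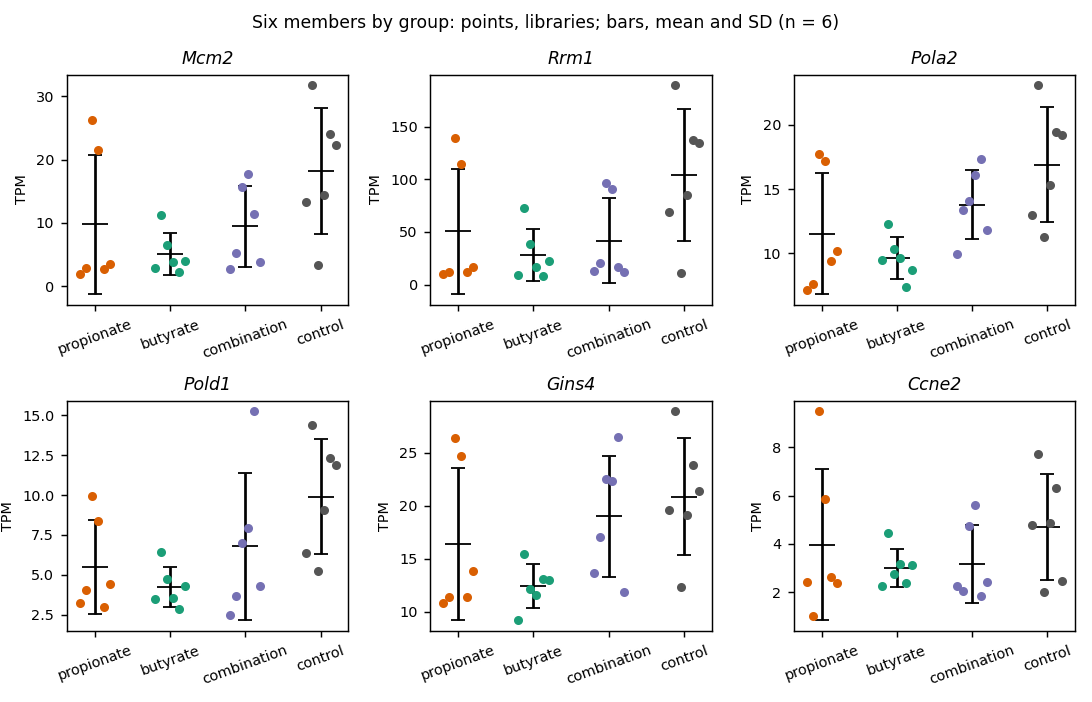
TPM of Mcm2, Rrm1, Pola2, Pold1, Gins4 and Ccne2 by group, with 1 point per library and the mean and SD of 6 libraries in black. In each panel the propionate group splits into 2 high and 4 low libraries, and control has a low library at 0.65 TPM of Wt1.

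Propionate against control asked how the list stood with propionate alone. All 42 tested genes lay below control, and none passed at an adjusted p under 0.05 (limma's moderated test, two-sided, Benjamini-Hochberg over 15163 genes, smallest member adjusted p = 0.333). The median log2 fold change of the members was -0.92, against -0.30 over all genes tested, of which 79.3% lay below 0 and 0% passed. An unadjusted p under 0.05 was reached by 8 members, and by 9.13% of all genes in that direction. SEs were 0.21 to 0.80 over the members.

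By role, the members furthest below control with propionate were those of nucleotide supply, with a median log2 fold change of -1.36 over 4 genes, of chromatin assembly (Chaf1a, Chaf1b, Uhrf1 and Slbp), with -1.22 over 4, and of the helicase, with -1.22 over 6. The clamp, its loader and lagging-strand genes were at a median of -0.93 over 7, licensing genes at -0.81 over 4, polymerases and primase at -0.80 over 8, the G1/S regulators Ccne1, Ccne2 and E2f1 at -0.68, and helicase activators at -0.59 over 6. The log2(TPM + 1) scale understates the change of low genes, and the order of roles was not tested apart from level. The smallest unadjusted p values belonged to Pola2, with a log2 fold change of -0.55 ± 0.21 (SE), and Pold1, with -0.78 ± 0.33. Of the 36 pairs of a propionate and a control library, 6 had the higher Pola2 in the propionate library and 5 the higher Pold1. Mcm10, which helps activate the helicase, was at -0.97 ± 0.42, and Lig1, the ligase that joins lagging-strand fragments, at -1.42 ± 0.65. Rrm2 was at -1.44 ± 0.67 and Pole2, the second subunit of polymerase epsilon, at -0.92 ± 0.44.

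Medians with propionate and in control show how far the split goes. Mcm10 had a median of 0.325 TPM with propionate, with a range of 0.19 to 3.53 TPM, against 2.97 TPM in control, with a range of 0.46 to 6.51. Lig1 had 1.88 TPM (1.10 to 19.3) with propionate, against 14.9 TPM (1.76 to 28.0) in control. Pole2 had 1.17 TPM (0.91 to 8.37) against 5.92 TPM (1.24 to 10.3) in control. For each of these genes the high propionate libraries reached control levels and the groups overlapped. At the other end, Cdt1, the licensing factor, was at a log2 fold change of -0.72 ± 0.49, the GINS gene Gins3 at -0.38 ± 0.27 and Ccne2 at -0.31 ± 0.33.

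The count of 8 turned on single libraries. Without propionate replicate 3 or 4 or control replicate 3, the member median was -1.22 to -1.18, against -0.41 to -0.38 over all genes, and 37 to 40 members reached an unadjusted p under 0.05, as 31.2 to 40.7% of all genes did in that direction. Without any other propionate replicate, or control replicate 2, 4, 5 or 6, the median was -0.96 to -0.74, and 1 to 3 members did, with 1.5 to 4.83% of all genes. Without butyrate replicate 3, 4 or 6, which enter only the shared spread, 5 members did, with 7.47 to 7.93%. None passed the adjusted threshold in any of these fits. Several marker lists moved with the members. Their mean log2(TPM + 1) was 3.74 ± 1.99 with propionate and 5.29 ± 1.93 in control for mesothelium (7 genes), 1.37 ± 1.33 and 2.44 ± 1.05 for granulosa and ovary (6), and 1.41 ± 1.07 and 2.31 ± 1.04 for epithelium and carcinoma (9, SD, n = 6 each). In the epithelium and carcinoma list, Krt8 and Krt18 reached 292 and 209 TPM in control. Epcam, Cldn3, Cldn4 and Pax8 reached at most 0.83, 1.3, 0.09 and 0.78 TPM with propionate or in control. The part of the marker lists in the result was tested only through the fits with Wt1 and Krt8 given further on.

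Butyrate gave the lowest median of the 3 comparisons with control. All 42 members lay below control, with a median log2 fold change of -1.14, against -0.38 over all genes, of which 78.8% lay below 0. None of the members passed in limma (smallest adjusted p = 0.115), and 0% of all genes did. An unadjusted p under 0.05 was reached by 39 of 42 members, all but Gins3, Rfc4 and Ccne2, and by 35.1% of all genes in that direction. Role medians ran from -1.66 for nucleotide supply to -0.82 for helicase activation, with the helicase at -1.48, chromatin assembly at -1.47, clamp, loader and lagging-strand genes at -1.22, licensing at -1.10, polymerases and primase at -0.99 and G1/S regulators at -0.90.

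Pola2 was at a log2 fold change of -0.72 ± 0.21 (SE) with butyrate, with means of 9.64 ± 1.63 TPM against 16.9 ± 4.47 TPM in control (SD, n = 6), and 1 of 36 pairs had the higher value in the butyrate library. Pold1 was at -1.02 ± 0.33, with 2 of 36 pairs, and means of 4.22 ± 1.26 TPM against 9.89 ± 3.61 TPM in control. Gins4 was at -0.68 ± 0.24, with 3 of 36 pairs. For Pola2 and Gins4 the butyrate libraries overlapped control only through control replicate 3. Gins2 was at -0.92 ± 0.34, Pole at -1.27 ± 0.48 and Mcm2 at -1.56 ± 0.58, with 4, 5 and 4 of 36 pairs. Rrm1 and Uhrf1 were furthest below, at -1.86 and -1.91, with SEs of 0.78 and 0.80. Rfc4, a subunit of the clamp loader, was at -0.45 ± 0.24, with a median of 9.34 TPM (8.50 to 13.4) with butyrate, against 13.9 TPM (6.86 to 21.8) in control. Gins3 was at -0.49 ± 0.27 and Ccne2 at -0.43 ± 0.33.

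This comparison turned on control replicate 3. Without it, 40 of 42 members were called lower with butyrate (limma, adjusted p = 0.0296 to 0.0440), when 37.3% of all 15163 genes passed in either direction. The 2 members not called were Gins3 and Ccne2. With all 6 controls none was called. An unadjusted p under 0.05 was reached by 41 members and 48.1% of all genes without that library, and by 10 to 24 members and 18.5 to 23.8% of all genes without butyrate replicate 1 or 5 or control replicate 2, 5 or 6. Wt1 in control replicate 3 was 0.65 TPM, against 131 TPM or more in the other 5. The summed level of mesothelium markers was 11.57 to 391 TPM with butyrate and 12.3 to 1116 TPM in control, and that of granulosa and ovary markers 2.34 to 95.5 TPM with butyrate and 2.38 to 230 TPM in control.

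The combination lay closer to control than either acid alone did by these medians, a difference tested in the next paragraphs. All 42 members were below control, with a median log2 fold change of -0.57, against -0.12 over all genes, of which 65.9% lay below 0. No member passed in limma (smallest adjusted p = 0.512), none reached an unadjusted p under 0.05 in that direction, as 4.1% of all genes did, and 0% of all genes passed. Without combination replicate 3, 4 or 5 the median was -0.70 to -0.67 and 1 to 3 members reached an unadjusted p under 0.05, as 4.54 to 7.84% of all genes did. Without control replicate 3 it was -0.87, with 17 members and 14.3% of all genes, and without control replicate 2 it was -0.37, with 0 members and 2.37%. Granulosa and ovary markers summed to a median of 6.62 TPM with the combination and 143 TPM in control. The smallest p values were those of Rrm1 (-1.44 ± 0.78, SE), Pold1 (-0.60 ± 0.33) and Pole (-0.87 ± 0.48).

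Gmnn, the inhibitor of licensing, was next, at -0.95 ± 0.55, with a median of 9.91 TPM (6.53 to 38.7) with the combination, against 28.3 TPM (9.95 to 60.8) in control. Mcm10 was at -0.70 ± 0.42 and Cdc6, which helps load the ring, at -0.70 ± 0.44, with a median of 1.27 TPM (0.62 to 3.26) against 3.33 TPM (0.40 to 7.50) in control. Nearest to control were Prim2, the large primase subunit, at -0.28 ± 0.40, Mcm3 at -0.41 ± 0.63 and Gins4 at -0.14 ± 0.24. Prim2 had a median of 4.86 TPM (2.51 to 7.15) with the combination, against 6.06 TPM (1.71 to 10.2) in control. The groups overlapped for every member in all 3 comparisons with control, which share the same 6 control libraries.

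The calls depended on how much weight single libraries carried. With weights estimated per library, 42 members were called lower with propionate, 42 with butyrate and 37 with the combination, when 75.4%, 67.6% and 38.2% of all genes were called in either direction. Those weights were 0.127 and 0.181 for propionate replicates 3 and 4, the libraries of high Wt1 in that group, and 0.260 for control replicate 3. With a block by library number, 41 members were called lower with butyrate, when 52.1% of all genes were called in either direction.

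**Figure D3:**
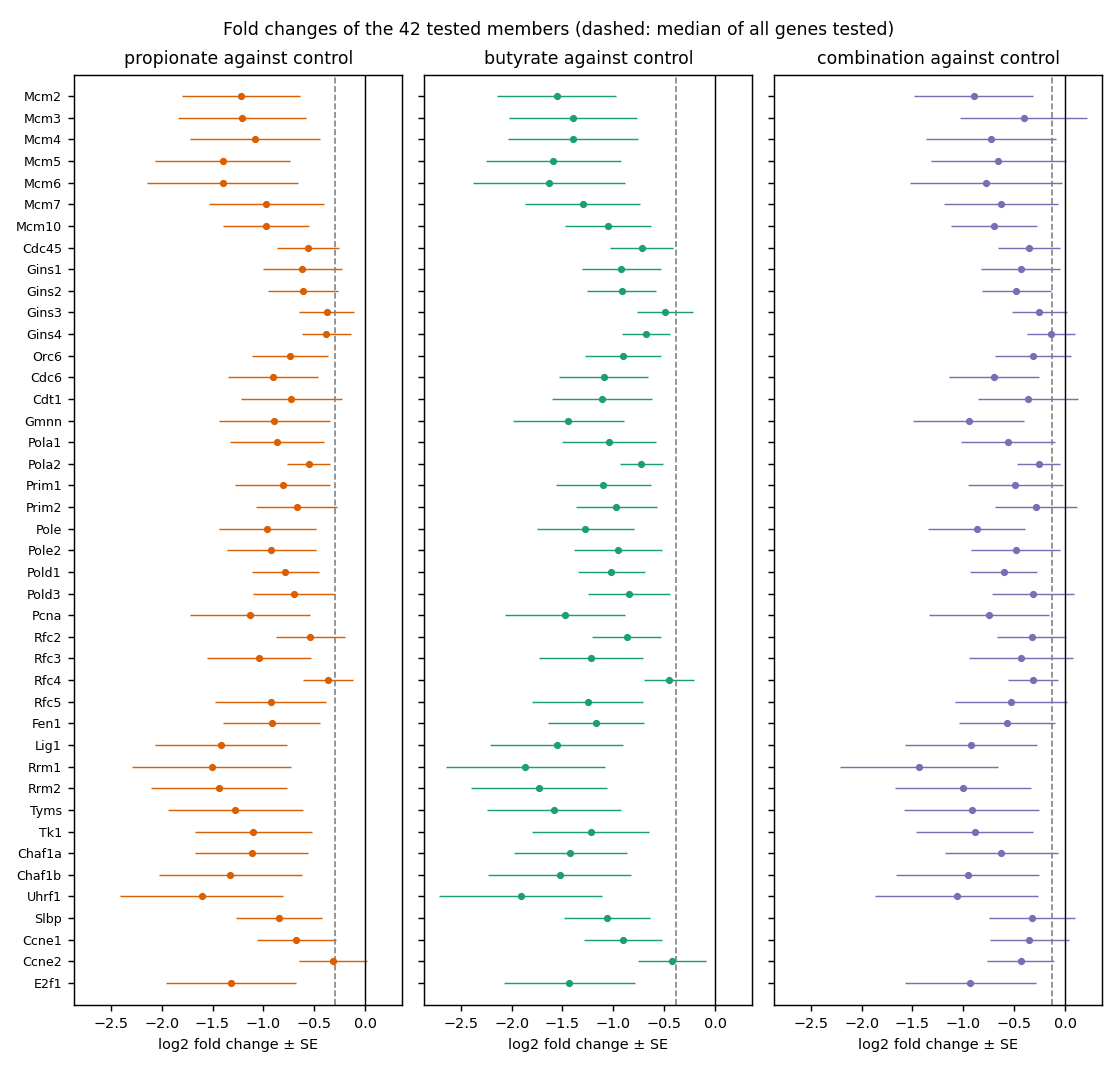
Log2 fold changes with their SEs of the 42 tested genes, ordered by role, for propionate, butyrate and the combination against control. The dashed line marks the median over all genes tested, at -0.30, -0.38 and -0.12. All points lie left of 0, and those of butyrate lie furthest left for every gene but Ccne2.

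Butyrate against propionate sets the 2 acids side by side. Butyrate has a carbon chain longer by a single carbon. Since no dose or time is given, it is not known whether they were matched. All 42 members were lower with butyrate, with a median log2 fold change of -0.23, against -0.09 over all genes, of which 70.3% lay below 0. None passed in limma (smallest adjusted p = 1), none reached an unadjusted p under 0.05 (0.541% of all genes did, in that direction), and 0% of all genes passed. Gins4 had the smallest p, at -0.30, with a 95% interval of -0.79 to 0.20, and Gmnn was at -0.55, with an interval of -1.68 to 0.58. All 42 intervals held 0, and the widest bounds were -1.97 and 1.36, so neither a sizeable difference nor its absence was shown. Without propionate replicate 3 or 4 the median was 0.07 or 0.02, and in the first of these fits 30 members were higher and 12 lower with butyrate. It was -0.44 to -0.38 without propionate replicate 1, 2 or 5 or butyrate replicate 2, and -0.12 to -0.11 without butyrate replicate 1 or 5.

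The combination against each single acid gave small positive differences. Against butyrate, 41 of 42 members were higher in the combination, with a median log2 fold change of 0.56, against 0.30 over all genes, of which 81.6% lay above 0. None passed in limma (smallest adjusted p = 0.317, 0% of all genes called), and 2 reached an unadjusted p under 0.05, as 14.6% of all genes did in that direction. They were Gins4 at 0.54, with a 95% interval of 0.05 to 1.03, and Pola2 at 0.47, with an interval of 0.03 to 0.91. For Pola2, 33 of 36 pairs of a combination and a butyrate library had the higher value in the combination. The other 40 intervals held 0.

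Against propionate, 40 of 42 members were higher in the combination, with a median of 0.34, against 0.19 over all genes, of which 76.9% lay above 0. None passed (smallest adjusted p = 0.668 in limma, 0% of all genes called), none reached an unadjusted p under 0.05 (8.43% of all genes did in that direction), and all 42 intervals held 0. Mcm3 was at 0.81, with an interval of -0.49 to 2.10. The 2 members that were lower were Gmnn at -0.05 and Ccne2 at -0.13. The median against propionate was 0.15 to 0.23 without propionate replicate 1, 2 or 5 or combination replicate 3, 4 or 5. It was 0.60 to 0.65 without propionate replicate 3 or 4, with at most 1 member at an unadjusted p under 0.05, when 13.1 to 18.3% of all genes reached it. Against butyrate, no member reached that p without combination replicate 3, 4 or 5 or butyrate replicate 1 or 4, and 1 did without combination replicate 2 or butyrate replicate 5 or 6, with 9.66 to 14.2% of all genes.

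The interaction asked whether adding butyrate to propionate differed from adding butyrate to nothing. It was computed as (combination - propionate) - (butyrate - control) on the log2(TPM + 1) scale. All 42 members had a positive value, with a median of 1.42, against 0.62 over all genes, of which 83.7% lay above 0. An unadjusted p under 0.05 was reached by 28 members and by 34.8% of all genes in that direction. None passed in limma (smallest adjusted p = 0.128, 0% of all genes called). Pola2 was at 1.02 ± 0.30 (SE), Gins4 at 0.92 ± 0.34 and Slbp, which binds the stem-loop of histone mRNA, at 1.60 ± 0.60. Role medians were highest for the helicase, at 2.04, and lowest for helicase activation, at 0.99. Without propionate replicate 3, 32 members were called (limma, adjusted p = 0.0365 to 0.0459), as were 37.1% of all genes, and 39 members and 53% of all genes reached an unadjusted p under 0.05. Without control replicate 3, 41 members and 49.8% of all genes reached it and none was called in limma. It was reached by 10 to 18 members and 21 to 27.1% of all genes without combination replicate 3, 4 or 5, propionate replicate 1, 2, 5 or 6, butyrate replicate 1, 4 or 5, or control replicate 2, 5 or 6. The member median in these last fits was 1.23 to 1.43.

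The list was then set against Wt1 and Krt8 over the libraries. The 10 libraries with at least 100 TPM of Wt1 summed to 572 to 1415 TPM over the 43 genes, with a median of 829. The other 13, with combination replicate 5 aside, summed to 146 to 353 TPM, with a median of 212. For 39 of the 43 genes, every library of the first kind lay above every library of the second, as was so for 26.2% of the 15163 genes tested. The exceptions were Gins4, Pola2, Pold3 and Ccne2. For Mcm6 the ranges were 25.5 to 66.3 TPM and 2.5 to 14 TPM, and for Uhrf1 8.41 to 25.3 TPM and 0.23 to 4.32 TPM. The libraries of high Wt1 were 2 of propionate, 1 of butyrate, 2 of the combination and 5 of control.

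Slopes were fitted in limma for all genes with the treatment group in the model, as log2(TPM + 1) of a gene per unit of log2(TPM + 1) of the marker. All 42 members had a positive slope on Wt1 that passed at an adjusted p under 0.05, with a median of 0.24 and a range of 0.08 to 0.44. Over all genes the median was 0.07, and 57% passed with a positive slope, so a positive slope alone does not set the members apart. Rrm1 was steepest, at 0.44 ± 0.03 (SE, adjusted p = 6.37e-11), ahead of Uhrf1 at 0.42 ± 0.05 and Mcm6 at 0.39 ± 0.05. Gins3, Pola2, Gins4 and Pold1 were the flattest, at 0.08 to 0.10. On Krt8 all 42 passed too, with a median of 0.30, against 0.10 over all genes, of which 67.2% passed with a positive slope. Uhrf1 was steepest there, at 0.52 ± 0.02, and Pola2 flattest, at 0.11 ± 0.02. Without combination replicate 5 all 42 passed on either marker, with medians of 0.27 on Wt1 and 0.29 on Krt8, when 67.4% and 67.8% of all genes passed with a positive slope.

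Within the 10 libraries of high Wt1 the slopes were steeper, for the members and over all genes. On Wt1 the member median was 0.77, against 0.27 over all genes. There 36 of 42 members passed, as 28.2% of all genes did with a positive slope. The 6 that did not pass were Gins4, Ccne2, Rfc4, Prim2, Gins2 and Tyms. On Krt8 the member median was 0.70, against 0.24 over all genes, with 37 members and 28% of all genes passing. Among these libraries Rfc5, a clamp loader subunit, was at 1.07 ± 0.17 on Wt1, Rrm2 at 1.05 ± 0.18 and Tk1, the thymidine kinase of S phase, at 0.95 ± 0.13 (SE, limma adjusted p = 0.00684, 0.00774 and 0.00652). These 10 libraries include 5 controls and a single butyrate library. With group in the model that butyrate library adds nothing to the slope, which rests mostly on differences among the controls.

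Among the 14 libraries under 100 TPM of Wt1, the slope on Wt1 depended on combination replicate 5. With it, 1 member passed, Rrm1 at 0.25 ± 0.05 (adjusted p = 0.0431 in limma), and the median was 0.08, with 1.15% of all genes passing with a positive slope. Without it, 32 of 42 passed and the median was 0.17, with 30.9% of all genes. On Krt8 the same 14 libraries gave 40 members, all but Rfc4 and Ccne2, a median of 0.23 and 52.1% of all genes, and without combination replicate 5 they gave 33 members, a median of 0.19 and 33.5%. Combination replicate 5 had no Wt1 but 123 TPM of Krt8, and its 576 TPM of members lay beside libraries of like Krt8, such as butyrate replicate 2, which had 572 TPM at 110 TPM of Krt8. Its tissue was not alike: the epithelium and carcinoma list had a mean log2(TPM + 1) of 4.63 in it, against at most 3.11 in any other library.

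**Figure D4:**
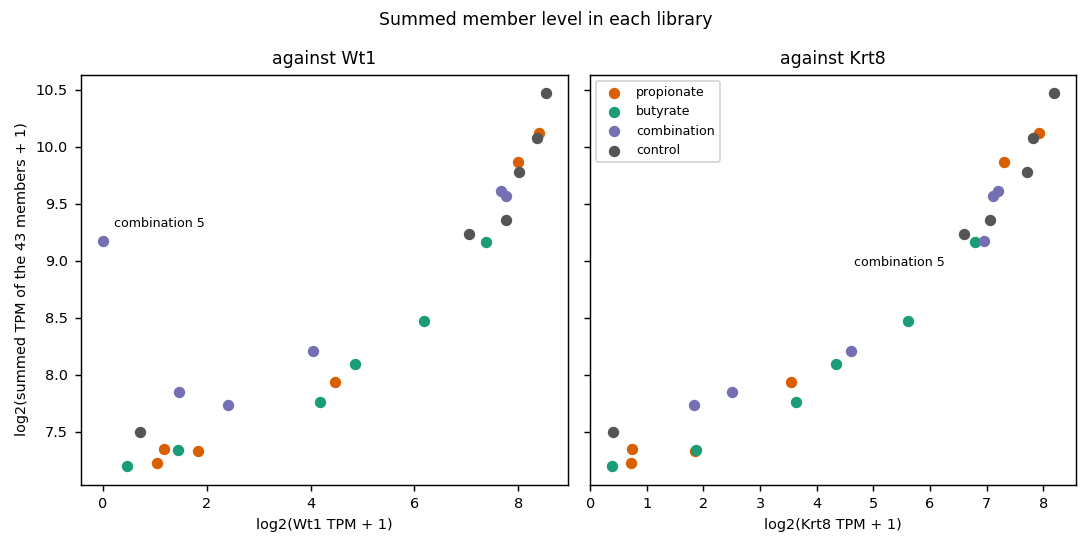
Summed level of the 43 genes against Wt1 (left) and Krt8 (right), both as log2(TPM + 1), with 1 point per library coloured by group. The points follow a bent line in which the highest libraries hold 131 TPM of Wt1 or more, and combination replicate 5 is off the line for Wt1 (0 TPM) and on it for Krt8 (123 TPM).

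The group differences were refitted with these markers in the model, which removes by construction what a gene shares with the marker. With log2(Wt1 TPM + 1) added, the median log2 fold change of the members was -0.33 with propionate, -0.54 with butyrate and 0.09 with the combination, each against control. Over all genes it was -0.12, -0.20 and 0.07 in the same order. With log2(Krt8 TPM + 1) the member median was -0.15, -0.41 and -0.19, against -0.05, -0.15 and -0.02 over all genes. With both markers it was -0.15, -0.40 and -0.17, against -0.05, -0.15 and -0.04. With Wt1 on the linear TPM scale, an alternative chosen after the data had been seen, it was -0.17, -0.02 and 0.39. All genes were then at -0.07, -0.03 and 0.20. So the sign for the combination depended on which marker was used, for the members and over all genes. The size for butyrate depended on the scale of Wt1, for both too. With log2 Wt1 for the combination and linear Wt1 for butyrate, the member median lay near that of all genes. These fits include combination replicate 5, at 0 TPM of Wt1 and 123 TPM of Krt8. With log2 Wt1 and without that library, Mcm3, Prim2 and Gins4 were at 0.25, 0.11 and 0.014 with the combination. With the library they were at 0.51, 0.28 and 0.14. These are the named members nearest to control, and the median without the library is not given here. Wt1 and Krt8 can mark tumour cells or mesothelium, and Wt1 granulosa cells too. Markers of mesothelium were high in the same libraries as the granulosa and ovary list, whose sums were mostly Inha and Star. Fshr of that list was at 0 TPM and Foxl2 at no more than 0.05 TPM in every library. Which cells the fits removed was not tested.

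A few members passed in these fits. With both markers in the model, a choice also made after the data had been seen, Pola2 fell by 0.45 on the log2 scale and Pold1 by 0.60 with butyrate (adjusted p = 0.0457 and 0.0387 in limma), 2 of 42 members, when 4.5% of all genes passed. Pold1 fell by 0.62 with the combination (adjusted p = 0.0482), 1 of 42, when 0.758% of all genes passed. With Wt1 alone no member passed in limma in any comparison, when 0.0132% of all genes did in the combination against control and 0.066% against butyrate. An unadjusted p under 0.05 was then reached by 0 members (lower) and 30 members (higher) in those 2 comparisons, when 1.81% and 37.9% of all genes reached it in that direction, and by 12 members and 16.5% of all genes with butyrate against control. Combination replicate 5, which had no Wt1, was part of these fits. With Krt8 alone none passed in limma either, when 2.59% of all genes did in the combination against control and 0.58% against butyrate. An unadjusted p under 0.05 was reached by 8 members in each of those 2, lower against control and higher against butyrate, when 10.7% and 23.2% of all genes reached it, and by 26 members and 20.5% of all genes with butyrate against control. With Krt8 alone, Pola2 was at -0.44 ± 0.12 (SE) with butyrate (adjusted p = 0.0711), and with Wt1 alone at -0.51 ± 0.17 (adjusted p = 0.224). With linear Wt1, Mcm3, Pole2 and Rfc3 rose in the combination against propionate, by 1.06, 0.62 and 0.82 (adjusted p = 0.0482, 0.0483 and 0.0482), 3 of 42, when 2.94% of all genes passed.

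**Figure D5:**
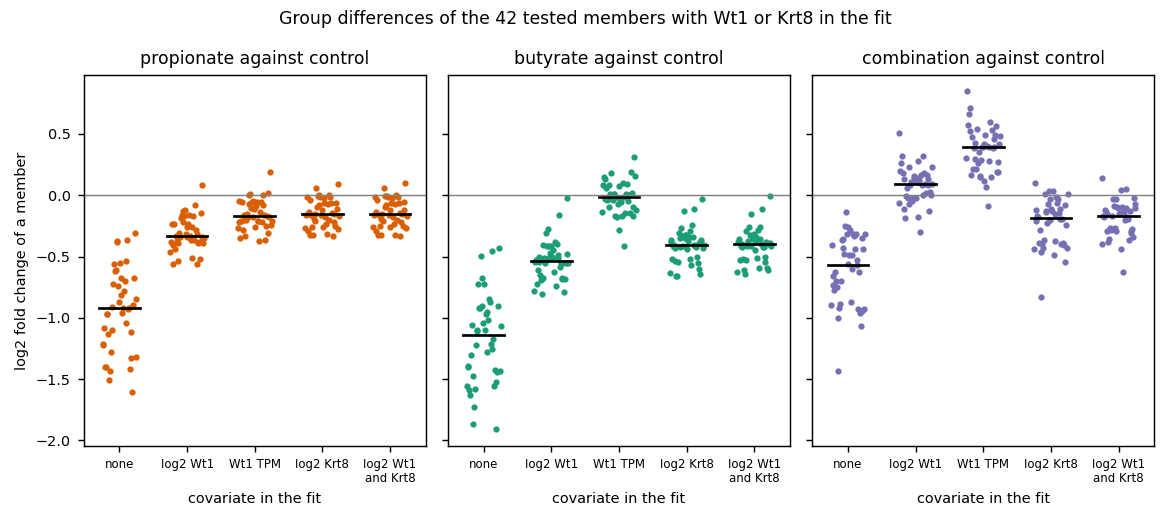
Log2 fold changes of the 42 tested genes against control, with no covariate and with Wt1, linear Wt1, Krt8 or both markers in the fit, for propionate, butyrate and the combination. Each point is a gene and each bar the median, which moves from -0.92 to -0.15, from -1.14 to -0.40 and from -0.57 to -0.17 between the first and the last fit. Over all genes, not drawn, it moves from -0.30 to -0.05, from -0.38 to -0.15 and from -0.12 to -0.04.

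Combination replicate 5 differed from replicates 3 and 4 of its group in the make-up of the list. It lay below both for 28 of 43 members and 36.7% of all genes tested, above both for 13 members and 53.4% of all genes, and between them for 2 members. Furthest below were Rrm1 at 16.7 TPM, against 96.6 and 90.7 TPM in replicates 3 and 4, Gmnn at 10.7 against 37.4 and 38.7 TPM, and E2f1, which encodes a factor that drives S phase genes, at 2.70 against 10.3 and 11.0 TPM. Furthest above were Ccne1, which encodes cyclin E1, at 5.18 against 2.03 and 1.82 TPM, Gins3 at 3.78 against 1.54 and 1.20 TPM, and Pold1 at 15.3 against 6.99 and 7.96 TPM. Its levels of Gins3, Pold1, Rfc2 and Ccne1 were the highest of all 24 libraries. The library is a single sample rich in lymphocyte, epithelial and adipocyte markers and poor in muscle, and the part of these in its profile was not tested.

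Other replication and cell cycle genes, 69 listed and 67 tested, stood on the same side of control in most cases. With propionate 65 of 67 lay below control (median log2 fold change -0.56, 6 at an unadjusted p under 0.05), with butyrate 65 (-0.68, 38), and with the combination 57 (-0.31, 0). Of all genes tested, 79.3%, 78.8% and 65.9% lay below control in the same order, with medians of -0.30, -0.38 and -0.12. That p was reached in that direction by 9.13%, 35.1% and 4.1% of all genes. None of the 67 passed in limma. With butyrate the smallest p values were those of Rpa1, which coats single-stranded DNA, at -0.69 ± 0.21 (SE), the E2F repressor E2f7 at -0.83 ± 0.25, Pold2, a subunit of polymerase delta, at -0.77 ± 0.23, and E2f4 at -0.37 ± 0.13. With propionate E2f4 was at -0.35 ± 0.13 and Cdc7, the kinase that fires origins, at -0.76 ± 0.29. E2f6 and Cdkn1c, which encodes the Cdk inhibitor p57, were the genes above control with either acid, at 0.26 and 0.65 with propionate and 0.36 and 0.43 with butyrate.

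A proliferation marker and a Cdk inhibitor gene were read beside the list. Mki67 had medians of 0.91 TPM with propionate, 2.10 with butyrate, 3.42 with the combination and 8.75 in control. Cdkn1a, which encodes the Cdk inhibitor p21, averaged 35.3 ± 8.84 TPM with propionate, 34.8 ± 10.1 with butyrate, 35.8 ± 6.96 with the combination and 45.2 ± 5.51 in control (SD, n = 6 each). Cdkn1a lay below control in all 3 treated groups, with log2 fold changes of -0.37, -0.40 and -0.34. The medians over all genes were -0.30, -0.38 and -0.12. It did not pass (adjusted p = 0.333, 0.122 and 0.508 in limma). Unlike the members, it had its highest value of all libraries, 51.6 TPM, in control replicate 3.

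Some members overlap other genes or have named pseudogenes. In an older annotation, 16 of the 43 genes have an exon overlapping an exon of another gene, for 13 of them a protein-coding one, such as Fen1 with Tmem258 and Cdc45 with Ufd1. The protein-coding overlaps lay on the other strand, except that of Pole2 with Gm49384. The sources used here do not say whether reads were assigned by strand. The processed pseudogenes Pcna-ps1, Pcna-ps2 and Tyms-ps held at most 0.14 TPM in any library.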

How the data were processed

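Per the labels' protocols, tissue RNA was taken up in TRIzol, selected by its polyA tail and made into stranded libraries. The submitters' processing notes name fastp, HISAT2, StringTie and the mouse build mm39. The sources used here give neither versions nor the annotation. A single table was deposited by the authors, with TPM values in 149132 transcript rows, 1001 of them without a gene name, and 24 library columns.

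TPM was summed by gene name and taken as log2(TPM + 1), which understates the change of low genes. Genes with at least 1 TPM in at least 6 libraries were fitted in limma 3.58.1 (R 4.3.3) with all groups in 1 fit, trend and robust moderation, 7 comparisons, two-sided tests, Benjamini-Hochberg adjustment over 15163 genes and a threshold of 0.05. Slopes on Wt1 or Krt8 came from the same kind of fit, with the marker left out of the genes tested. The fits were tested on simulated data with known changes. Plots and counts were made in Python 3.11.15.

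The members, the gene lists and the tests were chosen with earlier results of these data known. Named members are the 6 of smallest and the 3 of largest unadjusted p in each comparison with control. Their values stand for every library in the heat map and, in the text, for every library or as lowest, median and highest. Alternatives were other pseudocounts, filters, scalings, moderation, weights, blocks, covariates and leaving out each library.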

Additional observations from a re-analysis of the deposited data

Results flagged for a closer look

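In 9 of 168 groups of 6 libraries tested, 1 per tested gene and group, the library at the end of the range stood apart from its nearest neighbour by a share of the range of log2(TPM + 1) above Dixon's 95% critical value. These groups are not independent, since the genes were read in the same libraries and moved together. The count can therefore not be set against a share given by chance. Control replicate 3 was the low library for 7 genes, at 1.35 TPM for Mcm5, 3.47 for Mcm6, 10.96 for Rrm1, 13.72 for Rfc2, 2.30 for Fen1, 0.18 for Chaf1b and 0.52 for Uhrf1. It held 0.65 TPM of Wt1, and the part of tissue make-up in these values was not tested. Butyrate replicate 2 was the high library for 2 genes, at 1.65 TPM for Gins3 and 13.42 TPM for Rfc4. It held 166 TPM of Wt1, the most of its group.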

How the results depend on the processing

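Weights estimated per library gave the largest change: 42 members were called lower with propionate, 42 with butyrate and 37 with the combination, each against control, 18 higher in the combination against propionate and 41 in the interaction. Those fits called 11434, 10256, 5786, 5026 and 10982 of the 15163 genes. They gave propionate replicate 3 a weight of 0.127, combination replicate 5 one of 0.126 and control replicate 3 one of 0.260.

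The labels do not say whether a shared replicate number marks a shared animal or batch. Same-numbered libraries correlated between -0.87 and 0.74 by the number of the title, with 16 of 36 pairs over 0.1, and between -0.39 and 0.70 by that of the library description, with 18 of 27. The library of another group that correlated best had the same number for 3 and 2 of 24 libraries, so no pairing was assumed. A replicate block by title number changed none of the counts of called members. A block by library number called 41 members with butyrate against control, 35 in the interaction and 25 for the slope on Wt1, when 7903, 5426 and 2600 of all genes were called.

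Leaving out 1 library at a time gave 0 to 40 members called with butyrate and 0 to 32 in the interaction. In the libraries under 100 TPM of Wt1, 1 member was called for the slope on Wt1. With Wt1 and Krt8 as covariates, 2 members were called with butyrate and 1 with the combination, and with linear Wt1, 3 in the combination against propionate. The member median of the interaction was 0.93 with log2 Wt1, 0.35 with Krt8, 0.53 with linear Wt1 and 0.36 with both markers. Over all genes it was 0.44, 0.20, 0.30 and 0.18 in the same order. With log2 Wt1 and without combination replicate 5 the member median was 0.51. With linear Wt1 the member medians were -0.017 for butyrate and 0.39 for the combination against control, against -0.033 and 0.20 over all genes.

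Under median-of-ratios scaling all genes had a median of 0.01 with propionate and butyrate and -0.02 with the combination, and the members lay at -0.65, -0.79 and -0.45. Signs of single genes turned as follows. Under quantile normalization Ccne2 was at 0.026 with propionate, Rfc4 at 0.046 with butyrate and Gins4 at 0.014 with the combination. With log2 Wt1, Ccne2 was at 0.084 with propionate, and Prim2, Mcm3 and Gins4 at 0.28, 0.51 and 0.14 with the combination, or 0.093, 0.11, 0.25 and 0.014 without combination replicate 5. With Krt8, Cdt1 and Ccne2 were at 0.062 and 0.095 with propionate, and Prim2, Mcm3 and Gins4 at 0.031, 0.10 and 0.036 with the combination. With both markers, Cdt1 and Ccne2 were at 0.058 and 0.099, and Prim2 and Mcm3 at 0.042 and 0.14. With linear Wt1, Ccne2 was at 0.19 with propionate, Rfc4 and Ccne2 at 0.094 and 0.31 with butyrate, and with the combination Rrm1 was at 0.21, Pole at 0.070, Gmnn at 0.19, Mcm10 at 0.16, Cdc6 at 0.22, Prim2 at 0.49, Mcm3 at 0.85 and Gins4 at 0.28. None of these passed, and the cause was not tested. A fit of only the compared groups has no form for the interaction. Depth is unknown, so no counting error could be given.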
